A study of Mus musculus with 6 samples.

Results

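Long intergenic noncoding RNAs (lincRNAs) were described here in epididymal white adipose tissue (eWAT), the visceral fat pad that lies beside the epididymis of the male mouse. The genes were all rows of the deposited gene table with the biotype lincRNA whose FPKM was at least 1 in at least 3 of the 6 libraries. FPKM is the read count per kilobase of gene, divided by a library total that the authors had scaled. The members were thus chosen by their measured FPKM. The rule kept 179 of 5559 lincRNA genes, in a table of 55039 genes, and 2114 lincRNA genes had 0 reads in every library. The rule read the same libraries that are compared below, so a level at or above 1 FPKM is a property of the selection and not a result.

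The libraries came from male C57BL/6 mice that were 6 to 7 weeks old at the start. In the cancer-associated cachexia group (CAC, 3 mice), Lewis lung carcinoma (LLC) cells in PBS were injected under the skin near the ilium, and the control group (CONT, 3 mice) was given PBS alone. LLC is a lung tumor line that grows in this strain and is used as a model of cachexia, the loss of fat and muscle during cancer. Fat was taken 28 days after injection, and each library was poly(A)-selected RNA of 1 mouse, so the spread between libraries includes the spread between mice.

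LincRNAs are transcribed, capped, spliced and mostly polyadenylated like mRNAs, but lie between protein-coding genes and hold no long reading frame. Some act in the nucleus on chromatin, splicing or nuclear bodies, some act in the cytoplasm on RNA-binding proteins, some are carriers from which small nucleolar RNAs (snoRNAs) or microRNAs are cut, and for most no function is known. As a class they are less abundant and more tissue-restricted than mRNAs, and many start next to a protein-coding gene that is read in the other direction. In fat cells, single lincRNAs have been tied to adipogenesis and to the thermogenic programme of brown fat.

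The genes were mostly short and poorly named. Their exonic length ran from 154 to 20771 bases with a median of 1221, against 1038 for all lincRNA genes and 3422 for protein-coding genes of the table. All 179 were found in the GENCODE M21 annotation of the same build (GRCm38) and 175 had identical coordinates there. Of these genes 148 had more than 1 exon, 42 had a protein-coding start within 1000 bases in the divergent direction, and 105 lay within 5000 bases of a protein-coding gene or overlapped one. In 14 the exons overlapped exons of a protein-coding gene, 10 of them on the other strand. The strand setting of the counting is not given in the sources used here, so the reads of such pairs could not be told apart.

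Several transcripts were not unique in sequence, which bears on how far their reads belong to them. For each gene the longest M21 transcript was cut into words of 30 bases, and each word was looked for on both strands in the transcripts of all other genes. No base was shared in 80 genes, and more than 50% of the bases were shared in 23. The 3 sequences that follow are the last 300 bases of the only M21 transcript of 3 genes that are among those furthest apart between CONT and CAC below. Capitals mark bases that also occur in transcripts of other genes. Gm49303 and Gm48199 were near 0 in CONT, and Gm38563 was near 0 in CAC.
Gm49303: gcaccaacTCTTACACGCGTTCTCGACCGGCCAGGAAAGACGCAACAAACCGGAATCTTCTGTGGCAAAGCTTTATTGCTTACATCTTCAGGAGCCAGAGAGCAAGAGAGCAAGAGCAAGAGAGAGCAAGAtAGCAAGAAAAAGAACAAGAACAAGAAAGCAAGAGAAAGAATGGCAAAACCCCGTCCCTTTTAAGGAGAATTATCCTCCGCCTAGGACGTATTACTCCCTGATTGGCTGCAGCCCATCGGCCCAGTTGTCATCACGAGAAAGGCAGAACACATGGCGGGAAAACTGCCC
Gm48199: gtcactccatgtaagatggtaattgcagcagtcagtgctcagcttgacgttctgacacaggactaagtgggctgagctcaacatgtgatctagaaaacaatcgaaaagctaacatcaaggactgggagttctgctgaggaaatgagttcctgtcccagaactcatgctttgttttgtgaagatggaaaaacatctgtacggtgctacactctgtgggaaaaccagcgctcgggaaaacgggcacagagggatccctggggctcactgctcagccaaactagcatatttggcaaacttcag
Gm38563: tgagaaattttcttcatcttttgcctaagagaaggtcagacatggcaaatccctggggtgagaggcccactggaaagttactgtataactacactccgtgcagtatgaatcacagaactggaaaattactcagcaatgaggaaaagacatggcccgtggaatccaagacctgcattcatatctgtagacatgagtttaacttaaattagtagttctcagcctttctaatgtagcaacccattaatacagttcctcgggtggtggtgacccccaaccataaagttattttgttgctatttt
Gm49303 lies at chr14:47960019-47973713 on the plus strand, its transcript has 442 bases, and bases 143 to 442 are printed. Of the printed bases 291 were found again, and over the whole transcript 73.8% of the bases were shared with transcripts of 56 other genes. Gm48199 lies at chr13:52180411-52181637 on the plus strand, with bases 197 to 496 of 496 printed and 0 shared. Gm38563 lies at chr15:61157869-61165735 on the plus strand, with bases 416 to 715 of 715 printed, none of them shared, although 7.27% of the whole transcript was. How the counting treated reads with more than 1 position in the genome is not given in the sources used here, and whether the counts of Gm49303 hold reads of other loci was not tested.

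Expression was concentrated in a few genes. The mean FPKM over the 6 libraries had a median of 1.74 and ran from 0.723 to 58.9. It was at least 10 in 21 genes, at least 2 in 79 and below 1 in 21. All 6 libraries reached an FPKM of 1 in 74 genes, 5 libraries in 24, 4 in 32 and exactly 3 in 49. The 2 genes just inside the rule were 2700012I20Rik, with a third-highest FPKM of 1.01, and Gm39228, also at 1.01. The 2 just outside were Gm5547 at 0.999 and Gm39822 at 0.989.

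The libraries held 15713794 to 25926425 counts, and the 179 genes took 0.225 to 0.411% of them. Malat1 and Neat1 together made up 32.3 to 58.5% of the counts of the 179 genes. CONT replicate 1 stood apart: mitochondrial genes took 30.2% of its counts against 3.89 to 5.04% in the other libraries. Over the tested lincRNA genes, log2(CPM + 0.5) of this library correlated with the other libraries at r = 0.701 to 0.824, whereas the other pairs reached 0.777 to 0.974. These are correlations across 175 genes, which are not independent replicates. Markers of neighbouring tissues also differed between libraries. Summed CPM of 4 testis markers (Prm1, Prm2, Tnp1 and Odf1) was 693 in CONT replicate 2 and 1055 in CAC replicate 3 and 0 to 11.2 in the other libraries. In these 2 libraries 2643 and 2469 lincRNA genes had at least 1 read, against 1097 to 1699 in the others. Of the 175 tested lincRNA genes, 3 (1.71%) were highest in exactly these 2 libraries, against 8.96% of all tested genes. The rule asked for 3 libraries at 1 FPKM and so kept out genes found in these 2 libraries alone, and nothing can be read from that difference. Markers of the epididymis summed to 9261 CPM in CONT replicate 3, 202 in CONT replicate 1 and 0 to 15.9 in the others. All 8 adipocyte markers were present in every library, and their sums overlapped (14920 to 33651 CPM in CONT and 14359 to 31325 in CAC), with Fabp4 as the largest part in CONT. Single markers differed, since Lep had 697, 409 and 414 CPM in CONT and 512, 3.996 and 0.415 in CAC, and Pnpla2 had 1718, 1312 and 1916 against 4177, 3787 and 4725, without overlap.

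**Figure D1:**
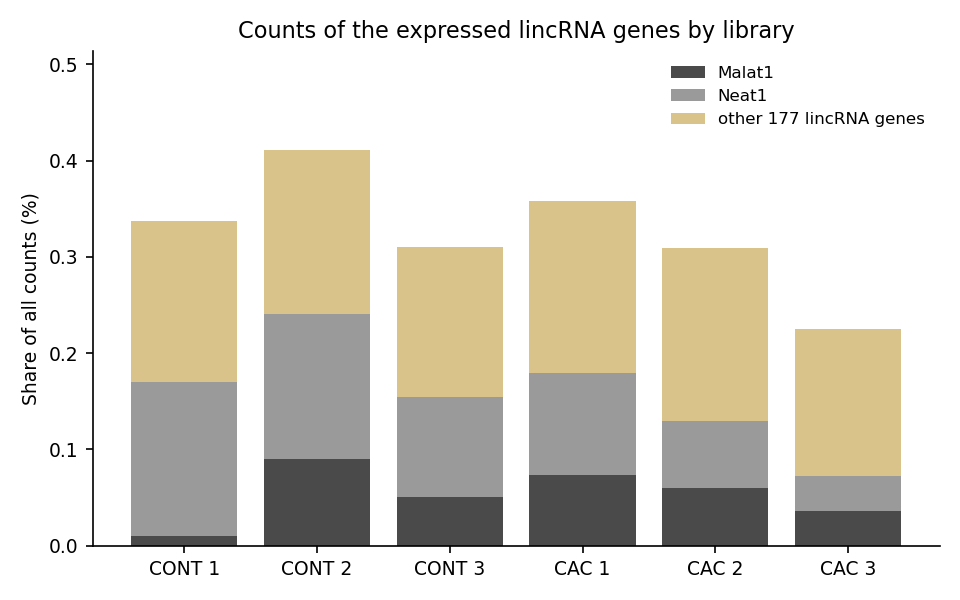
Share of all counts (%) taken by the 179 lincRNA genes in each CONT and CAC library, stacked as Malat1, Neat1 and the other 177 genes. The total is lowest in CAC replicate 3 (0.225%) and highest in CONT replicate 2 (0.411%), and the Malat1 segment is smallest in CONT replicate 1.

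The question of the comparison was which lincRNA genes of eWAT differ between mice with an LLC tumor and control mice. By edgeR's quasi-likelihood test, 0 of 175 tested lincRNA genes had an adjusted p under 0.05, and neither had any of the 17296 genes tested (0%). The smallest adjusted p was 0.127. At an unadjusted p under 0.05 the test gave 33 of 175 lincRNA genes (18.9%), 16 higher and 17 lower in CAC, where 13.3% of all tested genes passed, 6.31% higher and 6.95% lower. Without CONT replicate 1 the split was 22 higher and 7 lower, and on FPKM values (limma, log2(FPKM + 1)) it was 21 higher and 14 lower. In the first of these fits 7.30% of all tested genes were higher and 8.28% lower at that threshold, and in the second 7.83% and 6.30%. The second fit read the same FPKM values that had chosen the genes, so its split is a description and supports nothing. CPM, counts scaled to the TMM-adjusted library size, did not overlap between the groups in 44 lincRNA genes (25.1%), 23 higher and 21 lower, against 22.5% of all tested genes, 11.8% higher and 10.7% lower. The median log2 fold change (CAC minus CONT) was -0.05 for the lincRNA genes and -0.06 for all tested genes. By DESeq2, the tool the study used, 16 of 176 lincRNA genes with an adjusted p passed 0.05 (9.09%), 12 higher and 4 lower, where 4.97% of all genes passed, 2.86% higher and 2.11% lower.

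Part of these counts followed from the rule itself. A gene that reached 1 FPKM in the 3 libraries of one group and in none of the other could not have overlapping FPKM values. There were 9 such genes in CONT (Gm38563, Gm32389, Gm38398, 1700047G03Rik, 2310040G24Rik, Gm13056, Gm4035, Gm15675 and 1700041M05Rik) and 7 in CAC (Gm48199, Gm49303, Gm44226, Gm9889, Gm14221, E230001N04Rik and Gm43597). The separation of these 16 genes was built into their selection, so their values are given below as a description and support nothing. Of the 15 that were tested, all had p under 0.05 and none overlapped, and DESeq2 called 10 of the 16. Without them, 18 of 160 lincRNA genes (11.25%) had p under 0.05, 9 in each direction, and 29 (18.1%) did not overlap. DESeq2 then called 6 of 160 (3.75%). Among the 74 genes at 1 FPKM or more in all 6 libraries, 9 (12.2%) had p under 0.05 and 13 (17.6%) did not overlap. Both choices of genes depend on the separation itself, which lowers such shares, so they are not set against those of all tested genes. Error was larger for lincRNA genes, with a median standard error of the log2 fold change of 0.52 against 0.38 for all tested genes. The 291 other tested lincRNA genes, which missed the rule, had p under 0.05 in 11.3%.

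**Figure D2:**
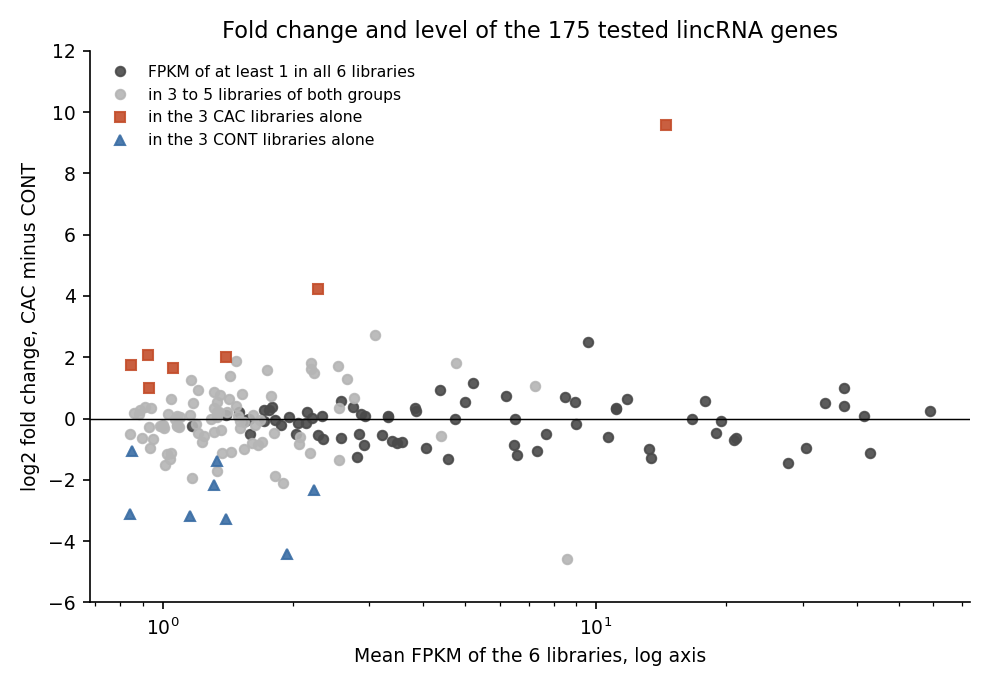
log2 fold change (CAC minus CONT, edgeR) of the 175 tested lincRNA genes against their mean FPKM on a log axis, with symbols for how many libraries reached 1 FPKM. The genes that reached it in the 3 CAC libraries alone lie above 0 and those that reached it in the 3 CONT libraries alone lie below 0, as the rule requires, and most genes present in all 6 libraries lie near 0.

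The best known nuclear lincRNAs were among the most abundant and did not separate the groups. Malat1, a nuclear speckle RNA that takes part in the control of splicing, had the highest mean FPKM (58.9). Its CPM was 135, 781 and 472 in CONT and 752, 548 and 357 in CAC, a log2 fold change of 0.26 ± 0.62 (SE, n = 3 per group, edgeR, adjusted p = 0.891). The lowest and the highest value were both in CONT. Without CONT replicate 1 its log2 fold change was -0.16.

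Neat1, the scaffold RNA of paraspeckles, had CPM of 2245, 1309 and 967 in CONT and 1089, 641 and 355 in CAC. Its mean was 1507 ± 662 (SD) in CONT and 695 ± 370 in CAC, with 1 CAC library above the lowest CONT library. The log2 fold change was -1.12 ± 0.52 (SE, edgeR, adjusted p = 0.411). It ran from -1.56 to -0.69 when 1 library was left out, and CONT replicate 1 was 1.72 times the next library. Malat1 and Neat1 are neighbours on chromosome 19, and the ratio between them turned over in CONT replicate 1, where FPKM of Neat1 was 87.7 and that of Malat1 15.7, while Malat1 had the higher FPKM in each of the other 5 libraries.

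2900097C17Rik is the mouse Norad gene, a cytoplasmic RNA that binds Pumilio proteins. Its CPM was 127, 180 and 198 in CONT and 206, 268 and 247 in CAC, so each CAC library was above each CONT library. The means of 168 ± 36.6 (SD) and 240 ± 31.5 gave a ratio of 1.43, and the log2 fold change of 0.51 ± 0.24 (SE) did not pass the test (edgeR, adjusted p = 0.418). Of its longest transcript 54.5% of the bases were shared with 2 other genes.

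Meg3, an imprinted lincRNA expressed from the maternal chromosome, had CPM of 15.4, 38.9 and 29.2 in CONT and 26.5, 11.99 and 3.96 in CAC, and the groups overlapped (adjusted p = 0.554, edgeR). Of the list of lincRNAs of nuclear bodies and chromatin, which was drawn up to hold 2900097C17Rik too although that RNA is cytoplasmic, 11 of 18 genes in the table had the biotype lincRNA, which the rule required, and 4 of these 11 met it (Malat1, Neat1, 2900097C17Rik and Meg3). None of them had p under 0.05, and 1 of the 4, 2900097C17Rik, did not overlap, where 22.5% of all tested genes did not.

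Hosts of small RNAs formed another of the 7 lists of noncoding RNAs by role. In the M21 annotation 7 of the 179 genes held a snoRNA or scaRNA gene on their strand, and 9 held a microRNA hairpin of the RefSeq annotation (GRCm38.p6), 14 hairpins in all. Snhg10, Snhg20 and 2900076A07Rik count under both, so 13 genes held either kind, and for 2900076A07Rik both entries are Mir1839. Such small RNAs are cut from the primary transcript of the host, and these libraries measured the host RNA and not the small RNA. Of the list of small-RNA hosts, 16 of 35 genes in the table had the biotype lincRNA and 9 of these 16 met the rule. The other 19, such as Gas5 and Snhg8, carry another biotype and could not meet the rule at any level. Of these 9, 1 had p under 0.05, lower in CAC, and 0 were higher at that threshold, where 6.95% of all tested genes were lower and 6.31% higher.

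That gene was Snhg18, the host of Snord123. Its CPM was 50.02, 19.8 and 27.4 in CONT and 19.6, 17.2 and 11.5 in CAC, without overlap although CONT replicate 2 and CAC replicate 1 were nearly equal. The log2 fold change was -1.01 ± 0.39 (SE, edgeR, adjusted p = 0.357). Without CONT replicate 1 it was -0.54 and the unadjusted p was no longer under 0.05, and the same loss of the call followed from leaving out CONT replicate 3 or any 1 CAC library. Sema5a, which starts 148 bases away on the other strand and encodes an axon guidance protein, was not lower (log2 fold change 0.48 ± 0.44, SE).

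Snhg6, the host of Snord87, had CPM of 29.2, 17.2 and 13.9 in CONT and 18.2, 36.0 and 36.3 in CAC. Snhg12, which holds 4 snoRNA genes, had CPM of 32.3, 12.3 and 13.0 in CONT and 17.9, 43.7 and 31.8 in CAC. Epb41l4aos had CPM of 45.9, 9.68 and 9.09 in CONT and 11.4, 29.7 and 26.4 in CAC. All 3 hosts were high in CONT replicate 1, CAC replicate 2 and CAC replicate 3 and low in the remaining libraries. CONT replicates 2 and 3 lay below each CAC library for all 3 hosts, so the groups overlapped through CONT replicate 1 alone. Their log2 fold changes were 0.59, 0.70 and 0.07, none of which passed the test (edgeR, adjusted p of 0.533, 0.555 and 0.979).

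Snhg20 and Snhg10 were highest in CONT replicate 1. Snhg20, which holds Mir6516, reached 145 CPM there and 14.3 to 39.2 in the other 5 libraries, so that its log2 fold change of -1.29 became 0.07 without this library. Snhg10, the host of Scarna13, had CPM of 2.59, 1.18 and 1.54 in CONT and 1.93, 0.928 and 0.793 in CAC.

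Among microRNA hosts, Mir142hg carries Mir142, a microRNA of blood cells. Its CPM was 4.10, 1.49 and 0.904 in CONT and 1.27, 0.969 and 0.340 in CAC, with overlap (log2 fold change -1.31 ± 0.77, SE, edgeR, adjusted p = 0.488). Without CONT replicate 1 the log2 fold change was -0.45. Mir17hg, the host of the Mir17 cluster of 6 hairpins, had CPM of 4.99, 3.37 and 2.17 in CONT and 4.72, 4.72 and 3.17 in CAC. Gm27028, which holds Mir30c-2, had 1 read in CONT replicate 1 and 31 to 198 reads in the other libraries, with CPM of 3.50 and 3.21 in the remaining CONT libraries and 8.13, 5.17 and 1.17 in CAC. The hosts E130102H24Rik (Mir101a), 6720427I07Rik (Mirlet7d) and 2900076A07Rik (Mir1839) overlapped between the groups as well.

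**Figure D3:**
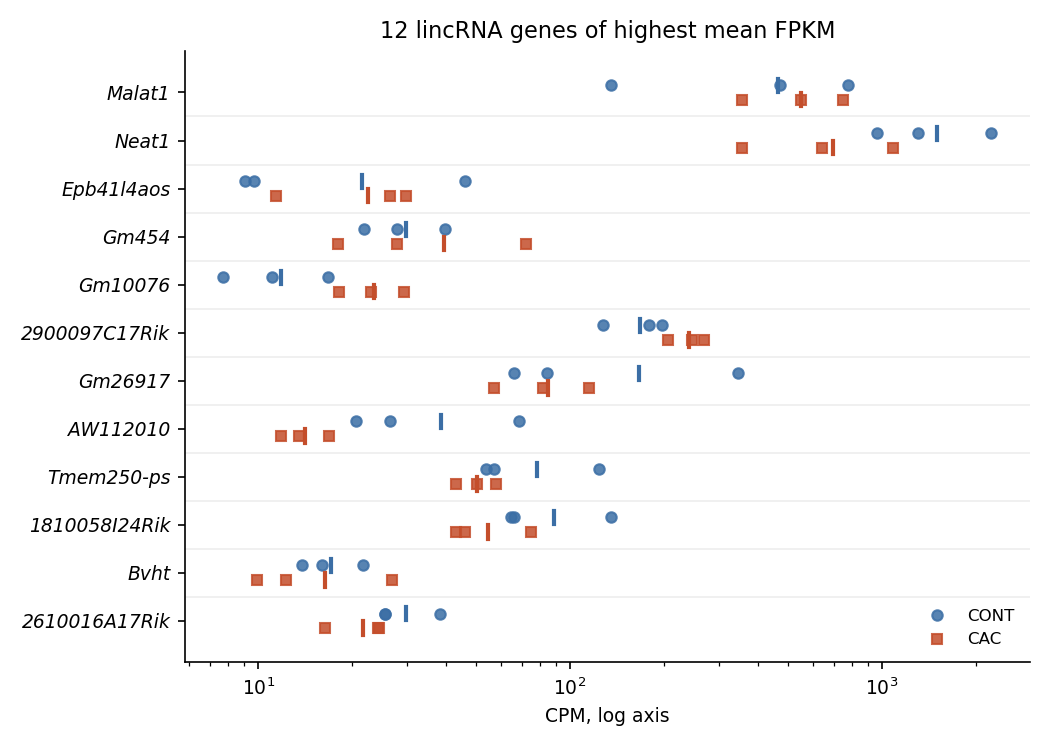
CPM on a log axis in 3 CONT (circles) and 3 CAC libraries (squares) for the 12 lincRNA genes of highest mean FPKM, with vertical bars at the group means. The groups overlap in 8 of the 12 and not in 4, where 22.5% of all tested genes do not overlap. Gm10076 and 2900097C17Rik lie higher in CAC, and AW112010 and 2610016A17Rik lie lower.

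Among immune-related lincRNAs, AW112010, a transcript of myeloid cells and lymphocytes that is induced by interferon and by bacterial products, had lower values in each CAC library than in each CONT library. Its CPM was 68.7, 26.5 and 20.5 in CONT and 16.9, 11.8 and 13.5 in CAC. The means of 38.6 ± 26.3 (SD) and 14.1 ± 2.57 gave a ratio of CONT to CAC of 2.74, and the log2 fold change was -1.45 ± 0.48 (SE, edgeR, adjusted p = 0.305). Without CONT replicate 1 it was -0.72.

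Gm4035 lies 2797 bases from Ly86, which encodes the MD-1 protein of B cells and macrophages. Its CPM was 3.30, 1.53 and 0.904 in CONT and 0.780, 0.121 and 0.340 in CAC, and Ly86 itself had 16.1, 26.4 and 18.4 CPM in CONT and 11.2, 8.68 and 7.33 in CAC. Ly86 was lower in each CAC library than in each CONT library, and Gm4035 was selected through CONT alone. In bulk tissue, fewer cells of a type and less RNA per cell cannot be told apart. Among markers of cell types, 5 of 6 B and plasma cell genes did not overlap and were lower in CAC, with sums of 34.4 to 91.5 CPM in CONT and 7.82 to 19.01 in CAC. Those of 6 fibroblast and progenitor markers were 2143 to 2537 CPM in CONT and 1360 to 2070 in CAC, with 4 lower in CAC, 1 higher and 1 overlapping. The 8 macrophage markers overlapped in every case, with sums of 725, 2044 and 2061 CPM in CONT and 1625, 879 and 1076 in CAC, so that the sums overlapped through CONT replicate 1 alone. C1qa, one of the 8, had an unadjusted p under 0.05 and lower values in CAC (edgeR, log2 fold change -1.01). Of the neutrophil markers, 4 of 5 did not overlap and were higher in CAC (2.50 to 44.8 against 127 to 1027 CPM). Their part in the values of AW112010, Gm4035 and Mir142hg was not tested. The list of immune or stress-regulated RNAs had 12 lincRNA genes, of which AW112010 and Mir142hg met the rule.

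Gm44226 ends 20 bases from the end of Gimap5, a GTPase gene of lymphocyte survival that is read towards it from the other strand. It had 5, 12 and 13 reads in CONT and 42, 48 and 78 in CAC, or 0.446, 0.526 and 0.588 CPM against 1.72, 1.94 and 2.95. The means were 0.520 ± 0.071 and 2.20 ± 0.652 CPM (SD), and the rule took this gene through its CAC libraries alone, so the gap is in part a property of the selection. Gimap5 had 9.27, 9.24 and 8.14 CPM in CONT and 12.4, 12.3 and 19.8 in CAC. Of the transcript of Gm44226, 68.8% was shared with other transcripts, and its exons overlap those of 4833403J16Rik.

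Lncbate1, a lincRNA of brown fat that supports the thermogenic programme, belongs to the list of fat or liver lincRNAs. Its CPM was 1.61, 3.99 and 3.07 in CONT and 3.98, 8.80 and 36.1 in CAC. CAC replicate 1 lay just below CONT replicate 2, so the groups overlapped. The log2 fold change was 2.48 ± 0.86 (SE, edgeR, adjusted p = 0.316), and CAC replicate 3 set its size, since it was 1.15 without that library. DESeq2 called it (adjusted p = 0.0443). It lies inside Zfhx3 on the other strand, a transcription factor gene with 24.7, 28.2 and 21.9 CPM in CONT and 29.9, 34.9 and 48.3 in CAC. Of the list, 6 of 13 genes in the table had the biotype lincRNA and 4 of these 6 met the rule (Lncbate1, Malat1, Neat1 and Meg3), and 1 of the 4, Lncbate1, had p under 0.05, at 0.0245 unadjusted, where 13.3% of all tested genes passed and 6.31% were higher.

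The list of developmental lincRNAs gave 1 gene, Bvht, known from heart muscle development, which had CPM of 21.7, 16.0 and 13.8 in CONT and 26.9, 12.3 and 9.89 in CAC. The list of genes that collect ribosomal RNA reads gave Gm26917, with 347 CPM in CONT replicate 1 and 57.0 to 115 in the other 5 libraries. Its log2 fold change was -0.97 with all libraries and 0.18 without CONT replicate 1. Neither separated the groups.

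The genes with the smallest p that were higher in CAC were little studied. Gm49303 had 1, 3 and 3 reads in CONT and 50, 58 and 71 in CAC. As CPM these were 0.0892, 0.131 and 0.136 against 2.05, 2.34 and 2.68, with CONT and CAC each close together. Scaled to library size, the reads gave a ratio of 18.996, with a 95% exact interval of 9.03 to 47.9 that covers counting error only. The fitted log2 fold change was 4.21 ± 0.49 (SE, edgeR). Gm49303 was selected through its 3 CAC libraries alone, and no test of it is given as support. Most of the sequence shown above occurs in other transcripts too. Peli2, the nearest protein-coding gene at 147110 bases, encodes a ubiquitin ligase of Toll-like receptor signalling and had 49.8, 62.6 and 63.8 CPM in CONT and 107, 122 and 103 in CAC.

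Gm48199, whose printed transcript holds no shared base, had 0, 0 and 1 reads in CONT and 21, 403 and 952 in CAC. Its CPM in CAC was 0.862, 16.3 and 35.9, so the 3 CAC mice differed widely among themselves although each was above each CONT mouse. Scaled to library size, the ratio of the reads was 1022 with a 95% exact interval of 183 to 40402, for counting error only. This gene too was selected through CAC alone. The nearest protein-coding gene, Diras2, was 322743 bases away and had a log2 fold change of -0.33.

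Gm11827 had 2.50, 1.01 and 0.633 CPM in CONT and 11.99, 7.02 and 7.89 in CAC. The means of 1.38 ± 0.986 (SD) and 8.97 ± 2.65 gave a ratio of 6.50, and the log2 fold change was 2.72 ± 0.60 (SE, edgeR, adjusted p = 0.228). It lies at chr4:11122805-11126998, 29433 bases before Trp53inp1 on the same strand, a p53 target that takes part in stress responses and autophagy. Trp53inp1 had 26.2, 50.02 and 42.8 CPM in CONT and 126, 368 and 496 in CAC (log2 fold change 3.05 ± 0.55, SE). The order of the CAC libraries differed between the 2 genes, with CAC replicate 1 highest for Gm11827 and lowest for Trp53inp1.

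Gm9889 had 1.07, 0.569 and 0.633 CPM in CONT and 2.34, 2.18 and 3.06 in CAC, a ratio of means of 3.34. It starts 78 bases from S1pr1, which is read in the other direction and encodes a receptor for sphingosine 1-phosphate on vessels and lymphocytes. S1pr1 had 147, 98.6 and 112 CPM in CONT and 322, 194 and 283 in CAC. S1pr1 was lower in each CONT library than in each CAC library, and Gm9889 was selected through CAC alone.

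AC130815.2 had 7.85, 4.38 and 4.43 CPM in CONT and 9.65, 18.3 and 30.5 in CAC, a log2 fold change of 1.82 ± 0.49 (SE). Gm48832 had 4.01, 8.19 and 14.1 against 45.5, 28.4 and 19.5, and its neighbour Tent5a, a poly(A) polymerase gene 5004 bases away, had 83.6, 63.4 and 55.6 against 119, 118 and 108. Gm14221 had 0.624, 1.18 and 1.58 CPM in CONT and 3.29, 3.31 and 7.25 in CAC, where CAC replicate 3 was more than 2 times the other CAC libraries. 0610043K17Rik (1.34, 0.788 and 0.949 against 2.26, 4.32 and 2.83) and Gm43091 (0.624, 0.526 and 0.678 against 1.56, 1.98 and 1.62) completed the 10 named genes. Gm14221 was selected through CAC alone. So was Gm43597, outside these 10, which had 3.39, 3.68 and 3.48 CPM in CONT and 7.51, 7.39 and 6.23 in CAC, a ratio of means of 2.003. Gm10076, one of the 12 most abundant genes, had 16.8, 11.04 and 7.73 against 23.0, 29.4 and 18.1, but 99.7% of its transcript was shared with 7 other genes.

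**Figure D4:**
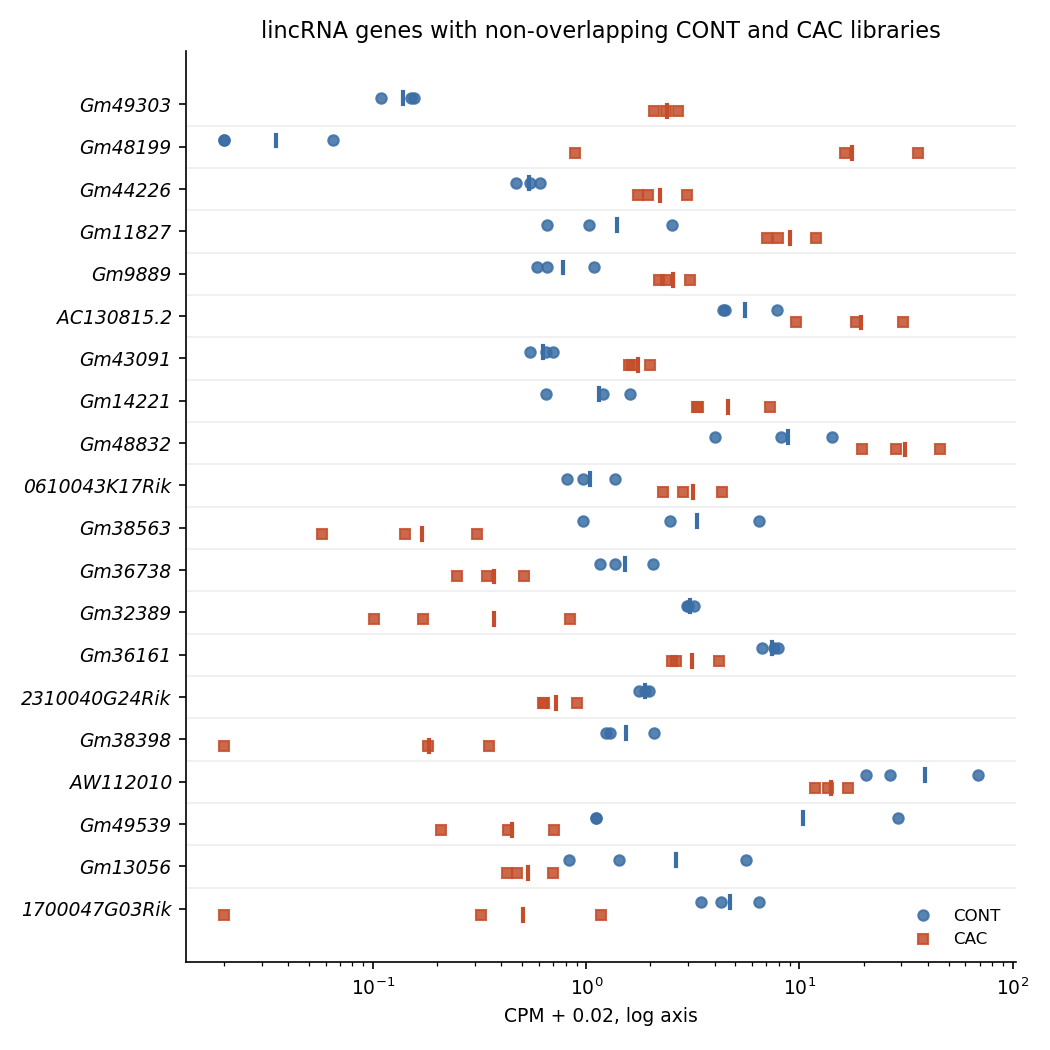
CPM + 0.02 on a log axis in the CONT (circles) and CAC libraries (squares) of the 10 higher and the 10 lower lincRNA genes with the smallest p among those whose groups do not overlap; vertical bars are group means. Gm49303 and Gm32389 show tight CONT values far from CAC, whereas Gm48199 spreads over 0.862 to 35.9 CPM in CAC and Gm49539 owes its CONT mean to 1 library.

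Genes lower in CAC were mostly of low level. Gm38563 had 72, 56 and 21 reads in CONT and 7, 3 and 1 in CAC. In CPM, CONT replicate 1 was 2.62 times the next library. Scaled to library size, the ratio of the reads was 18.2, with a 95% exact interval of 9.90 to 37.3 for counting error only. The log2 fold change was -4.41 ± 1.02 (SE) and ran from -5.25 to -3.45 when 1 library was left out. Gm38563 and Gm32389 were selected through CONT alone, as were Gm38398, 1700047G03Rik, 2310040G24Rik and Gm13056 among the genes that follow. Gm32389 had 2.94, 3.20 and 2.98 CPM in CONT and 0.821, 0.0807 and 0.151 in CAC, so CONT mice were nearly equal while CAC mice were not. Gm36738, which lies 1628 bases from Rac2, a GTPase gene of blood cells, had 1.34, 1.14 and 2.03 CPM in CONT and 0.493, 0.323 and 0.227 in CAC, while Rac2 had a log2 fold change of -0.16.

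Gm38398 had 23, 29 and 27 reads in CONT and 8, 4 and 0 in CAC. Scaled to library size, their ratio was 8.86 with a 95% exact interval of 4.80 to 17.9. Gm38398 lies 3618 bases from Hmgn3, a nucleosome-binding protein gene, which had 62.2, 16.7 and 13.4 CPM in CONT and 12.9, 7.51 and 4.80 in CAC. 1700047G03Rik had 48, 147 and 76 reads in CONT and 28, 0 and 8 in CAC, which gave CPM of 4.28, 6.44 and 3.44 against 1.15, 0 and 0.302. 2310040G24Rik had 1.87, 1.75 and 1.94 CPM against 0.616, 0.888 and 0.604, and Gm36161 had 7.58, 7.93 and 6.64 against 4.19, 2.62 and 2.49. Both had CONT libraries close to each other and no overlap. Of the transcript of Gm36161, 95.7% was shared with 790 other genes.

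Gm49539 and Gm13056 rested on CONT replicate 1. Gm49539 had 28.9 CPM in that library, 1.09 and 1.08 in the other CONT libraries and 0.189 to 0.686 in CAC, and its log2 fold change of -4.57 was -1.32 without it. Gm13056 had 5.62, 1.40 and 0.814 CPM in CONT and 0.452, 0.404 and 0.680 in CAC, and its value of -2.32 was -1.09 without it. CONT replicate 1 was the highest library for 68 of the 175 tested lincRNA genes (38.9%) against 27.0% of all tested genes, and CAC replicate 3 was the lowest for 65 (37.1%) against 20.4%. In 38 lincRNA genes CONT replicate 1 was more than 1.5 times the next library, and 27 of the 179 genes needed this library to reach 3 libraries at 1 FPKM. 1700041M05Rik, with 8, 9 and 24 reads in CONT and 1, 0 and 0 in CAC, was removed by edgeR's filter and called by DESeq2. Scaled to library size, its ratio of reads was 55.2, with a 95% exact interval of 9.37 to 2233.

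Outside the 16 genes that the rule took through 1 group alone, the unadjusted p (edgeR) stayed under 0.05 whichever library was left out in 4 of 160 tested lincRNA genes (2.5%), all higher in CAC (Gm26809, Gm48832, Gm11827 and AC130815.2). Of all tested genes 4.37% met this criterion, 2.63% with higher values in CAC, but that share leaves no such genes out, so the 2 shares are not comparable. Gm26809, E230001N04Rik, 4933406I18Rik, Gm43597, Gm44421, Gm4035, the hosts of single microRNAs and 1700041M05Rik lay outside the rule for named genes and were chosen after their values were seen.

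Many lincRNA genes share a regulatory region with a protein-coding neighbour, so each was compared with the nearest one by coordinates. Of the 44 lincRNA genes whose groups did not overlap, 42 had a tested nearest protein-coding gene. Without the genes that the rule took through 1 group alone, 28 remained. In 9 of these the neighbour did not overlap either and lay in the same direction, 8 higher and 1 lower. In 2 it did not overlap and lay in the opposite direction (AU020206 with Akap13, and Gm26809 with Lsm8), and in 17 it overlapped. With all 42, the same direction was seen in 16. For comparison, CPM did not overlap in 22.5% of all tested genes in either direction, 11.8% higher and 10.7% lower in CAC.

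E230001N04Rik lies next to Fkbp5, and its higher level in CAC was required by the rule, which took it through the CAC libraries alone. It lies at chr17:28522720-28525398 on the plus strand, 5193 bases from the end of Fkbp5 that holds its start, since Fkbp5 is read from the minus strand. Fkbp5 encodes a co-chaperone of the glucocorticoid receptor and is a well known target of glucocorticoids. E230001N04Rik had 0.981, 1.45 and 2.62 CPM in CONT and 6.24, 5.29 and 4.27 in CAC (log2 fold change 1.63 ± 0.49, SE). Fkbp5 had 120, 88.9 and 136 CPM in CONT and 663, 606 and 622 in CAC (2.45 ± 0.25, SE, edgeR, adjusted p = 0.127). The exons of E230001N04Rik overlap those of Gm20109, and 24.7% of its transcript was shared with other genes.

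4933406I18Rik starts 120 bases from Pde3b, the phosphodiesterase through which insulin restrains lipolysis in fat cells, and is read in the other direction. It had 1.07, 2.10 and 1.63 CPM in CONT and 5.42, 3.83 and 3.36 in CAC, and Pde3b had 228, 335 and 397 against 848, 502 and 691. Both had CAC replicate 1 as the highest library. Gm44421, downstream of the transcription factor gene Klf15 by 3228 bases on the same strand, had 1.34, 2.01 and 1.67 CPM in CONT and 2.42, 2.83 and 2.61 in CAC. Klf15 had 71.1, 68.5 and 77.6 against 152, 187 and 163, and a separate lincRNA could not be told apart here from reads that run past the end of Klf15.

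Over all 156 pairs in which both genes were tested, the log2 fold change of the lincRNA gene and that of its neighbour correlated with r = 0.37 (Spearman's rho 0.38). Within 5000 bases r was 0.50 (rho 0.42, 95 pairs) and beyond it 0.30 (rho 0.30, 61 pairs). For the 42 pairs with divergent starts within 1000 bases r was 0.43 (rho 0.41). The direction was the same in 59.0%, 58.9%, 59.0% and 61.9% of these pairs. These are descriptions across genes of the same 6 libraries, which share any shift that a library has, and no test was made of the difference between distances. The genes that the rule took through 1 group alone were kept in these correlations, and pairs with overlapping exons were not removed.

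**Figure D5:**
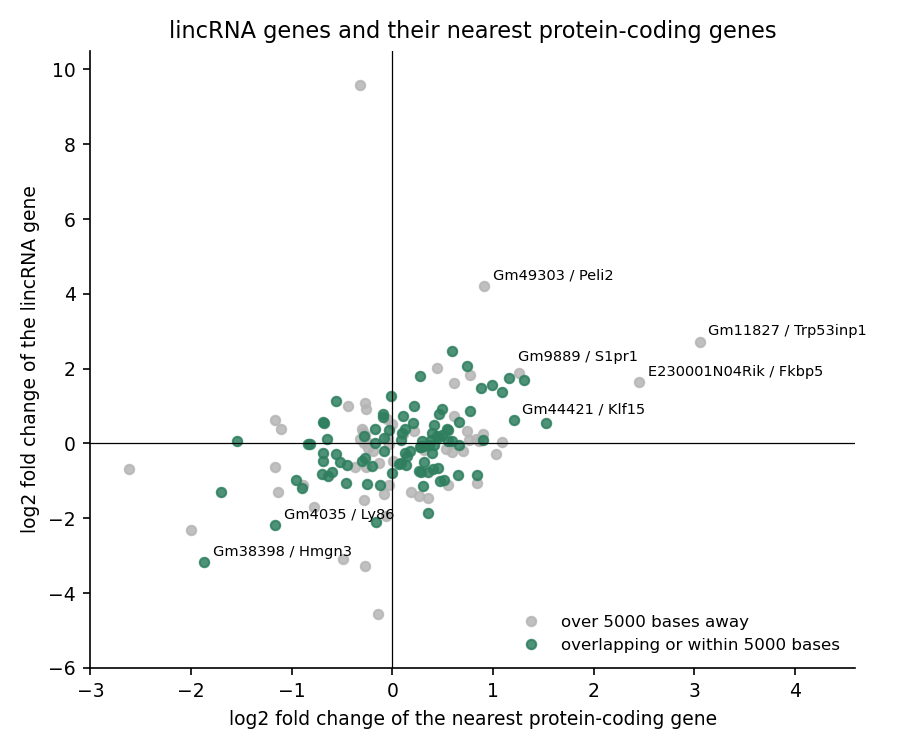
log2 fold change (CAC minus CONT) of 156 lincRNA genes against that of the nearest protein-coding gene, in green where the genes overlap or lie within 5000 bases and in grey beyond. Of the labelled pairs, Gm11827 with Trp53inp1 lies far from 0 on both axes (2.72 and 3.05), and Gm44421 with Klf15 lies at 0.64 and 1.21. The labelled E230001N04Rik, Gm9889, Gm38398, Gm49303 and Gm4035 were selected through 1 group alone, so their distance from 0 was built into the selection. Most pairs lie within 1 unit of 0.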

How the data were processed

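Poly(A)-selected RNA of eWAT from 3 CONT and 3 CAC mice was sequenced by the authors, 1 library per mouse. Reads were cleaned with in-house Perl scripts and aligned to the Ensembl mouse genome (release 94), and the submitters' processing notes name HISAT2 2.0.5 and featureCounts 1.5.0-p3. The authors deposited raw counts per gene without normalization. The FPKM values deposited by the authors differ from these counts only by gene length and 1 factor per library, which is close to proportional to the TMM-adjusted library size and not to the summed counts, so the FPKM rule and the tests read the same reads. Strand setting and the treatment of reads with several positions are not given in the sources used here.

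The members, gene lists and tests were chosen with earlier results of these data known. Counts were tested with edgeR 4.0.16 (R 4.3.3; quasi-likelihood, robust, TMM, filter by group, Benjamini-Hochberg over all genes tested), with group as the only term. CPM is on the TMM-adjusted library size, where 1 CPM stood for 11.2 to 26.5 reads. Alternatives were DESeq2 1.42.0, voom and limma 3.58.1 on log2(FPKM + 1) and log2(FPKM + 0.1), which understates changes of low genes, for genes that reached 0.5 FPKM in 3 or more libraries. The functions were tested on simulated data. Non-overlap means that the lowest library of one group exceeded the highest of the other, and 3 against 3 libraries allow no exact two-sided permutation p below 0.1. Ratios of reads compare the summed reads of each group after division by its summed TMM-adjusted library sizes. Their exact (Clopper-Pearson) 95% intervals are scaled in the same way and cover counting error only.

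Genes named were the 12 of highest mean FPKM, the 10 higher and 10 lower non-overlapping genes of smallest p, genes of 7 role lists, those next to the threshold, and nearest protein-coding genes. A few others were named after their values were seen. Transcripts and neighbours came from GENCODE M21 (GRCm38), and microRNA hairpins from RefSeq (GRCm38.p6). Sums of 12 lists of cell type markers were computed. Those of endothelium (1252 to 2332 CPM in CONT, 1791 to 2079 in CAC), mesothelium (111 to 194, 62.8 to 201), T cells (7.50 to 10.8, 6.31 to 9.98), skeletal muscle (6.35 to 42.3, 8.72 to 44.5) and erythroid cells (5276, 248 and 373 in CONT, 1756 to 2299 in CAC) overlapped. For endothelium, skeletal muscle and erythroid cells the overlap came through CONT replicate 1 alone. In each of these lists 1 marker was higher in each CAC library (Vwf, Lrrn4, Cd3e, Myh4 and Alas2) and 0 were lower without overlap. Of all tested genes 11.8% were higher without overlap and 10.7% lower. The other lists stand in the report. The list of imprinted genes held 1 member, Meg3.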

Additional observations from a re-analysis of the deposited data

How the results depend on the processing

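The number of lincRNA genes with an adjusted p under 0.05 was 0 by edgeR and stayed 0 with DESeq2 size factors, without mitochondrial genes, without a filter, and when any 1 library was left out. It was 16 by DESeq2 (4.97% of all genes passed), 15 by voom with sample quality weights (5.51%) and 1 by limma on FPKM with either pseudocount (Gm49303, with 5 and 6 of all genes). Gm49303 was selected through CAC alone, on the same FPKM values that limma read. Of the 16 genes called by DESeq2, 10 were selected through 1 group alone. Among those called by voom, so were Gm49303, Gm44226, Gm9889, Gm43597, Gm32389 and 1700047G03Rik. The calls of these genes support nothing. At an unadjusted p under 0.05 it was 33, with 60 by voom (28.2% of all genes passed there) and 17 to 36 when 1 library was left out, lowest without CAC replicate 2 (17) and CAC replicate 3 (21), where 7.24% and 8.32% of all genes passed against 9.66% and 11.9% of the lincRNA genes. The count was 36 without CAC replicate 1, where 11.7% of all genes passed against 20.5% of the lincRNA genes. The 44 non-overlapping genes became 49 to 79 when 1 library was left out, with 70 without CONT replicate 1 and 79 without CAC replicate 1, since fewer libraries overlap less (26.6 to 37.7% of all genes, 27.8 to 44.9% of the lincRNA genes). With a threshold of 2 FPKM, 74 genes gave 15 and 19 (13.3% and 22.5% of all genes). The replicate numbers did not pair the samples (correlations of same-numbered deviations 0.306, -0.151 and -0.218), and the replicate block gave 34, 0 and 44 genes (11.5% and 22.5% of all genes for the first and last). The median log2 fold change ranged from -0.157 to 0.0623 and moved by less than the spread between libraries.

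The log2 fold change took both signs in 62 of 175 lincRNA genes when each library was left out in turn. Among the genes named by rule it changed sign for Malat1 (-0.128 by voom, and -0.161 without CONT replicate 1 to 0.864 when 1 library was left out), Epb41l4aos (-0.29 to 1.27 when 1 library was left out, negative without CONT replicate 2, CONT replicate 3, CAC replicate 2 or CAC replicate 3), Gm454 (-0.331 without CAC replicate 1 to 0.754), Gm26917 (-1.34 to 0.185) and Snhg20 (-1.68 to 0.0707), the last 2 positive without CONT replicate 1, and Bvht (0.00866 without a filter, and -0.591 to 0.202 when 1 library was left out, positive without CONT replicate 1, CAC replicate 2 or CAC replicate 3). The cause was not tested. Low counts limit the genes near 1 FPKM.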

Other observations

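Of the 33 lincRNA genes with an unadjusted p under 0.05 (edgeR), 1 more was higher in CAC and 5 were lower. Gm26809 had CPM of 13.4, 10.4 and 11.9 in CONT and 16.6, 24.4 and 37.9 in CAC. AU020206 had CPM of 64.6, 27.2 and 24.6 in CONT and 19.3, 23.0 and 13.7 in CAC, and A430046D13Rik had 40.7, 13.5 and 13.7 against 11.8, 8.44 and 9.18. Both were highest in CONT replicate 1, and their log2 fold changes of -1.05 and -1.20 reached -0.46 in both when 1 library was left out. Gm20300 had 25.6, 14.9 and 16.7 against 13.9, 10.9 and 9.18, Gm34084 had 3.12, 2.67 and 3.16 against 1.64, 0.323 and 0.340, and Gm15675, which lies 1836 bases from the complement inhibitor gene Cd55, had 5.08, 6.001 and 4.66 against 3.61, 2.10 and 1.77. Gm15675 reached 1 FPKM in CONT alone, so that its separation was built into the selection. These genes were chosen after their values were seen.

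The 179 genes were spread over all autosomes and chromosome Y, with 20 on chromosome 5, 16 on chromosome 6, 15 on chromosome 1 and 1 on chromosome Y.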
